A study of Mus musculus with 12 samples.

Results

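The genes described here encode the Wnt signalling machinery of the mouse: 19 Wnt ligands, 10 frizzled receptors, the co-receptors Lrp5 and Lrp6, 4 R-spondins with their 3 receptors Lgr4, Lgr5 and Lgr6, 9 secreted antagonists, Axin1, Axin2, β-catenin (Ctnnb1) and the 4 TCF/LEF transcription factors. They were taken by symbol from the protein-coding genes of the deposited count table, which gave 54 of 46517 genes by name alone. All 54 symbols matched GENCODE M21 by Ensembl identifier. Wnt ligands are secreted lipid-modified proteins that bind a frizzled receptor together with Lrp5 or Lrp6. In the absence of a ligand, β-catenin is marked for destruction by a complex built on Axin. A bound ligand disables that complex, and β-catenin then enters the nucleus and switches on genes with the TCF/LEF factors. Wnt signals pattern the embryonic hindbrain, guide synapse formation in the cerebellum and drive a molecular class of medulloblastoma other than the one that grows from granule progenitors under Hedgehog signalling.

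RNA was sequenced from 4 libraries of tumor-derived astrocytes, 4 of tumor GNPs and 4 of normal astrocytes. The tumor is a medulloblastoma, a cancer of the cerebellum. GNPs, granule neuron progenitors, are dividing precursors of cerebellar granule cells, and astrocytes are support glia of the brain. Per the labels, cells of every group were picked by laser capture microdissection from frozen sections, and short 3′ end cDNA was amplified and tagmented; the protocol speaks of tumor brains only. The stated aim was to set the profile of tumor-derived astrocytes beside those of the other two groups. The strain label is C57BL/6 for both astrocyte groups, while for the GNP libraries its last number goes up from library to library. In the deposited sample sheet, tumor-derived libraries are tumor astrocytes, the first GNP entry reads as cultured, and normal libraries are adult cerebellar astrocytes. The name of every GNP library ends in cul, of every tumor-derived library in YA and of every normal library in AD. No source used here gives a genotype, a sex, the marker by which cells were recognised or how many animals were used, nor an age beyond the word adult. Cell type, age and possible culture follow the same groups and cannot be told apart.

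Each library held 8679971 to 12626596 counts in tumor-derived astrocytes, 8154401 to 8673023 in GNPs and 8838441 to 11287457 in normal astrocytes. GNP replicates 1, 2 and 4 resembled one another much more than libraries of a group did elsewhere. Their pairs differed by 1.43 to 7.52 chi-square per degree of freedom (genes of 10 or more counts), and the other 15 pairs within groups by 24.03 to 184.34. They were counted as 1 sample in GNP means (n = 2). Calls that involve GNPs had to pass in the fit of all libraries and again in a fit with those 3 summed into 1. Nothing in the labels says that libraries of 1 group came from separate animals, so p-values cover the spread among libraries, which may be technical. Summed levels of 12 astrocyte markers were 1001 to 2101 CPM in tumor-derived astrocytes, 469 to 705 CPM in GNPs and 6041 to 13146 CPM in normal astrocytes. None of the 12 was at 0 throughout a group, but in GNPs the means of Aqp4 and Slc4a4 were 0.017 and 0.156 CPM. Both lay under 3 counts in a library (0.315 CPM in GNPs), while S100b and Slc1a2 had GNP means of 305 and 187 CPM. Markers of other cell types were present as well. A list of 9 granule progenitor markers summed to 606 to 730 CPM in tumor-derived astrocytes, 440 to 611 CPM in GNPs and 212 to 476 CPM in normal astrocytes, where Atoh1 and Nhlh1 were at 0. Of the 8 of them that were tested, 5 were higher in tumor-derived than in normal astrocytes, 4 in GNPs than in normal astrocytes, and 0 were called between the tumor groups in both fits. A list of 10 pericyte, fibroblast and meningeal markers summed to 123 to 193 CPM in tumor-derived astrocytes, 32.0 to 69.4 CPM in GNPs (Lum at 0) and 42.4 to 73.4 CPM in normal astrocytes (Col3a1 at 0), and 9 oligodendrocyte lineage markers to 138 to 228 CPM, 44.0 to 48.4 CPM (Mog, Mobp and Sox10 at 0) and 189 to 732 CPM in the same order of groups. A list of 12 Purkinje and mature neuron markers summed to 203 to 694 CPM in tumor-derived astrocytes, 114 to 124 CPM in GNPs, where Pcp2, Car8 and Gabra6 were at 0, and 4692 to 14849 CPM in normal astrocytes. A list of 11 microglia and macrophage markers summed to 655 to 910 CPM, 1.56 to 7.24 CPM (Cx3cr1, Aif1, Ctss and P2ry12 at 0) and 192 to 495 CPM in the same order of groups, and 8 cell cycle genes to 1392 to 2025 CPM, 2567 to 2824 CPM and 7.03 to 26.8 CPM. The part of these other cells in the results below was not tested. In libraries of this kind, fewer cells of a type and less RNA per cell cannot be told apart.

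Of the 54 members, 24 passed the filter on low counts and were tested, 5 had no count in any library (Wnt3a, Wnt8a, Wnt9a, Wnt11 and Rspo4), and 25 had counts in some libraries but did not pass the filter, which asks for counts in several libraries. Levels are CPM, counts scaled to the size of the library with TMM factors, and a call is an adjusted p under 0.05 in edgeR's quasi-likelihood test over 14393 genes. Against normal astrocytes, tumor-derived astrocytes were higher in 6 tested members (Sfrp1, Sfrp2, Dkk4, Fzd2, Lgr5 and Tcf7l1), where 20.7% of all tested genes were called higher, and lower in 2 (Wnt7a and Lgr6), where 19.3% were called lower. Against GNPs, tumor-derived astrocytes were higher in 3 members (Wnt7a, Fzd9 and Lgr5; 7.84% of all genes) and lower in 0 (4.36% of all genes). The fit of all libraries alone had called 6 higher (20.1% of all genes) and 3 lower (12.9%). With the close GNP libraries summed, edgeR called 0 members lower, 3 were lower at an unadjusted p under 0.05 (12.9% of all genes), and DESeq2 on all libraries called 6 lower (16.7% of the genes it tested). GNPs were higher than normal astrocytes in 5 members (Sfrp1, Sfrp2, Dkk4, Fzd2 and Tcf7l1; 13.9% of all genes) and lower in 3 (Wnt7a, Wnt3 and Fzd9; 13.4%), where the fit of all libraries had called 7 higher (20.4%) and 6 lower (23.8%). Without overlap of libraries, 5 members lay higher (20.9% of all genes) and 1 lower (16.1%) in tumor-derived than in normal astrocytes, and 10 higher (22.0%) and 3 lower (19.5%) in GNPs than in normal astrocytes. Members that passed the filter through 1 high group were bound to differ, so these counts describe the members and stand for nothing more. The median log2 fold change of the 24 was 0.83 for tumor-derived against normal astrocytes, -0.11 for tumor-derived astrocytes against GNPs and 0.86 for GNPs against normal astrocytes, beside 0.03, 0.08 and -0.03 over all tested genes. These comparisons share libraries, so each is given by its own values.

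**Figure D1:**
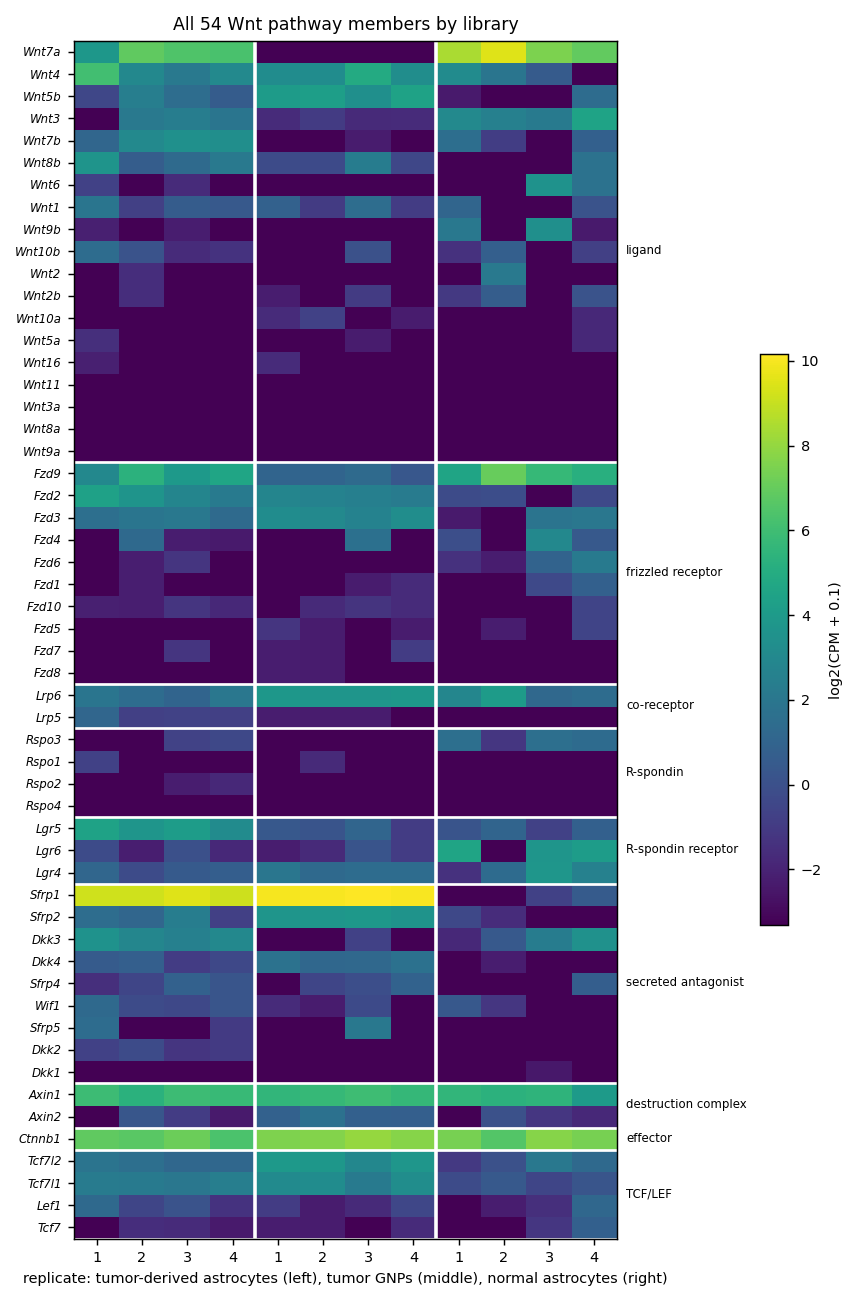
Level of all 54 Wnt pathway members, as log2(CPM + 0.1), in each of the 12 libraries, with tumor-derived astrocytes at left, tumor GNPs in the middle and normal astrocytes at right, and members grouped by role. Sfrp1 is bright in the 8 tumor libraries and dark in the 4 normal ones, Wnt7a is dark in GNPs only, and most R-spondins and many ligands are dark throughout.

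Wnt7a, a ligand known for its action on synapses and on blood vessels of the brain, was the ligand with the widest difference between groups. Its level was 13.8, 118, 88.2 and 77.1 CPM in tumor-derived astrocytes, 0 in every GNP library and 355, 732, 184 and 122 CPM in normal astrocytes. The highest tumor-derived library lay just under the lowest normal one, so that the astrocyte groups did not overlap, and both lay above GNPs. Tumor-derived astrocytes were lower than normal astrocytes, at 74.4 ± 43.9 against 348 ± 274 CPM (SD, n = 4 each; log2 fold change -2.23 ± 0.68 SE, adjusted p = 0.0237). It did not pass once normal replicate 2 was left out (-1.55, adjusted p = 0.0706), and the adjusted p was 0.0552 with tumor-derived replicate 3 left out and 0.0608 with replicate 4 left out. With GNPs set to 3 counts in each library, the limit that a count of 0 allows (0.315 CPM), tumor-derived astrocytes were at least 236-fold higher than GNPs (adjusted p = 0.000137, and 0.00252 with the close GNP libraries summed). GNPs were at least 1105-fold lower than normal astrocytes (adjusted p = 1.53e-05 and 0.000242). Among the normal libraries, replicate 2, the highest in Wnt7a, had the lowest sum of neuronal markers, 4692 CPM, and also the lowest sum of astrocyte markers, 6041 CPM against 7901 to 13146 CPM in the others. Replicates 3 and 4, with sums of 14849 and 13590 CPM, had the lowest Wnt7a. The gene lies on chromosome 6 at 91363981 to 91411363 (mm10, minus strand) and overlaps no other gene of the table.

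Wnt3, a ligand known from adult Purkinje cells, and Fzd9, a frizzled receptor, shared with Wnt7a a level in GNPs below that in normal astrocytes in both fits. Wnt3 was at 0, 4.3, 5.1 and 3.65 CPM in tumor-derived astrocytes, at 0.216, 0.407, 0.208 and 0.213 CPM in GNPs and at 8.04, 5.67, 4.39 and 22.7 CPM in normal astrocytes. GNPs did not overlap normal astrocytes, while tumor-derived astrocytes ran from 0 into the normal range. The log2 fold change of GNPs against normal astrocytes was -5.22 ± 1.16 (adjusted p = 0.00266 and 0.04), or -4.44 without normal replicate 4. GNP libraries held 2, 4, 2 and 2 counts of Wnt3, all but replicate 2 under the floor of 3 counts. The size of this difference is therefore poorly known. Tumor-derived astrocytes passed only the fit of all libraries against GNPs (3.58 ± 1.09, adjusted p = 0.0235, and 0.154 with GNPs summed) and did not pass against normal astrocytes (-1.64 ± 0.97, adjusted p = 0.197).

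The promoters of the 3 members that were lower in GNPs than in normal astrocytes in both fits are shown because these members shared that call. Wnt7a and Wnt3 did not follow each other among normal libraries, where replicate 4 was lowest in Wnt7a and highest in Wnt3. Each is the RefSeq window (GRCm38.p6) from 250 bases before to 50 after the annotated start, and such a window was at hand for 36 of the 54 members but not for Sfrp1, Lgr5, Fzd2 or Dkk4. Capitals mark a TCF/LEF motif, searched on both strands as CTTTGAA, with the last pair of letters also allowed to be AT, TA or TT. The Wnt7a window is at chr6:91411304-91411603 on the minus strand, that of Fzd9 at chr5:135250998-135251297 on the minus strand and that of Wnt3 at chr11:103773925-103774224 on the plus strand. In the deposited count table Fzd9 reaches to 135251230, beyond the RefSeq start at 135251047. Much of the Fzd9 window thus lies within the gene as placed there.
Wnt7a: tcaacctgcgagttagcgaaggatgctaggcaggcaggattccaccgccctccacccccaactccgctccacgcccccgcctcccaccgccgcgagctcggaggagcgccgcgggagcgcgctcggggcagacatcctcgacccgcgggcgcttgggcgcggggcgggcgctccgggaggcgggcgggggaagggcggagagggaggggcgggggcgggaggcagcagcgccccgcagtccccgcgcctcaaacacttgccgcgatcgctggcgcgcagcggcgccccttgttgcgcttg
Fzd9: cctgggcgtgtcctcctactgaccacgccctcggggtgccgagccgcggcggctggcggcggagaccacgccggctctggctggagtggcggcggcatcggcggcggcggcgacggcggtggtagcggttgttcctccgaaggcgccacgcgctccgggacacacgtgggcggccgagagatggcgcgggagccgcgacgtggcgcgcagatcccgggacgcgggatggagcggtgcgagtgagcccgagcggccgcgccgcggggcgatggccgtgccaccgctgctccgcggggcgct
Wnt3: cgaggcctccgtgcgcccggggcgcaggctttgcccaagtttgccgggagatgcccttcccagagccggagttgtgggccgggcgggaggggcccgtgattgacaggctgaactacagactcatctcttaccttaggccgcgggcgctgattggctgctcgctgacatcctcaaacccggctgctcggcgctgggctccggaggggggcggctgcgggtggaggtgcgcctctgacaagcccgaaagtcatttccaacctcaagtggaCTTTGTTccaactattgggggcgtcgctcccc
The Wnt3 window held 1 TCF/LEF motif and the other two held none of these letters, nor did any of the 3 hold the GLI motif GACCACCCA on either strand. Over all 32851 promoter windows of this length, 16.9% held a TCF/LEF motif and 0.253% the GLI motif, against 7 (15.6%) and 0 of the 45 windows of members. The windows were rich in G and C, at 76.0% for Wnt7a, 78.0% for Fzd9 and 65.7% for Wnt3. A match is a run of letters and not a measured site.

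The other tested ligands differed less clearly. Wnt7b, the closest relative of Wnt7a, was at 2.12, 7.99, 10.6 and 10.2 CPM in tumor-derived astrocytes, at 0 in GNPs but for 1 count in replicate 3, and at 2.84, 0.454, 0 and 1.66 CPM in normal astrocytes. Tumor-derived astrocytes were above every GNP library (286 counts against 1, a ratio of 304 with an exact 95% counting interval of 54.2 to 12058), with an adjusted p of 0.00233 that became 0.0504 with GNPs summed, and against normal astrocytes the adjusted p was 0.078 (2.63 ± 1.12), or 0.0422 without normal replicate 1. Wnt5b, usually assigned to signalling without β-catenin, was at 0.623, 5.41, 2.71 and 1.44 CPM in tumor-derived astrocytes, at 17.0, 18.8, 10.4 and 21.8 CPM in GNPs and at 0.0946, 0, 0 and 2.63 CPM in normal astrocytes. GNPs thus lay above every other library, but the call against normal astrocytes (4.61 ± 1.30, adjusted p = 0.0112) was lost with GNPs summed (adjusted p = 0.0554), and its size was 8.57 without normal replicate 4. Without that same library, tumor-derived astrocytes passed against normal astrocytes as well (adjusted p = 0.00162), where the fit of all libraries gave 1.88 ± 1.19 (adjusted p = 0.228). Between tumor-derived astrocytes and GNPs there was no call (-2.73 ± 1.18, adjusted p = 0.0917 and 0.279).

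Wnt4, a ligand of several developing organs, stood apart in 1 library of each tumor group. It was at 66.3 CPM in tumor-derived replicate 1 and 7.62, 4.34 and 8.16 CPM in the others, at 30.0 CPM in GNP replicate 3 and 9.18, 9.37 and 9.82 CPM in the others, and at 9.08, 3.63, 1.38 and 0 CPM in normal astrocytes. It passed in no comparison (adjusted p of 0.0887, 0.718 and 0.161), and against GNPs the log2 fold change of tumor-derived astrocytes, 0.57 ± 1.09, was -1.10 without tumor-derived replicate 1. Against normal astrocytes, tumor-derived astrocytes passed only without normal replicate 1 (3.72, adjusted p = 0.0366). Leaving out other libraries gave values down to 0.957 and adjusted p up to 0.517. Wnt8b followed the same libraries, with 12.5 CPM in tumor-derived replicate 1 (1.47 to 4.22 CPM in the others) and 4.98 CPM in GNP replicate 3 (0.64 to 0.756 CPM in the others). It passed in no comparison, but without normal replicate 4, the one normal library with counts, both tumor-derived astrocytes (adjusted p = 0.00343) and GNPs (adjusted p = 0.00687) passed against normal astrocytes. With all libraries the adjusted p was 0.196 and 0.583 in the same order. Wnt1, the ligand that sets up the midbrain and hindbrain boundary, was at 0.491 to 3.62 CPM in tumor-derived astrocytes, 0.407 to 2.7 CPM in GNPs and 0 to 1.99 CPM in normal astrocytes, and passed in none.

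Summed over the 19 ligand genes, Wnt transcripts were at 103 to 147 CPM in tumor-derived astrocytes, 29.4 to 49.8 CPM in GNPs and 159 to 749 CPM in normal astrocytes. Wnt7a made up 72.6 to 80.5% of the ligand counts in tumor-derived replicates 2 to 4 and 76.9 to 97.7% in normal astrocytes. In tumor-derived replicate 1, in contrast, Wnt4 took 64.6% (exact 95% binomial interval 61.3 to 67.9%) and Wnt7a 13.5% (11.2 to 16%) of 823 counts. In GNPs, Wnt5b led in replicates 1, 2 and 4, at 57.7 to 66.0%, and Wnt4 in replicate 3, at 60.2% (55.7 to 64.6%). Divided by length, Wnt7a held 75.5 to 81.8% in tumor-derived replicates 2 to 4 and 75.9 to 97.6% in normal astrocytes. Since short 3′ end cDNA was amplified, counts may not scale with length, so the divided shares are no check of the others. The intervals above cover counting error only.

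**Figure D2:**
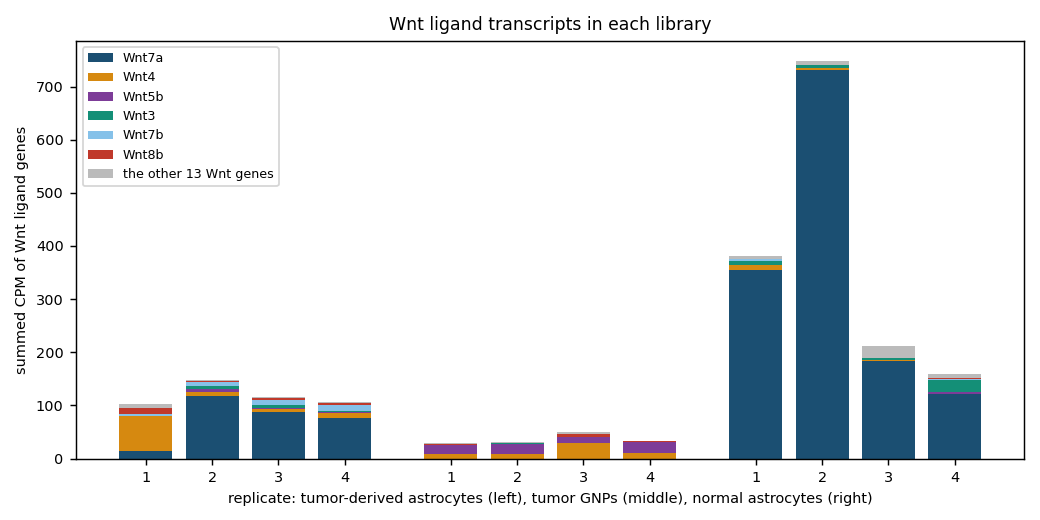
Summed level, in CPM, of the 19 Wnt ligand genes in each library, stacked by gene, with tumor-derived astrocytes at left, tumor GNPs in the middle and normal astrocytes at right. Wnt7a fills most of each bar in normal astrocytes and in tumor-derived replicates 2 to 4, Wnt4 fills most of tumor-derived replicate 1, and the GNP bars, at 29.4 to 49.8 CPM, hold Wnt5b and Wnt4 but no Wnt7a.

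Among the 12 ligands that did not pass the filter, 5 had more than 5 counts in a library. Wnt6 had 137 and 34 counts in normal replicates 3 and 4 and at most 4 in any other library, and Wnt9b 121 and 43 counts in normal replicates 3 and 1 and at most 1 elsewhere. Wnt2 had 38 counts in normal replicate 2 and 2 elsewhere. Each of these ligands was thus seen almost only in 1 or 2 normal libraries. Wnt2b reached 13 counts in normal replicate 2, and Wnt10b 21 counts in tumor-derived replicate 1. The other ligands with any count, Wnt5a, Wnt10a and Wnt16, had at most 5 counts in any library.

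Of the 10 frizzled receptors 4 were tested, and Fzd9 and Fzd2 were called. Their calls for GNPs against normal astrocytes had opposite directions. Fzd9 was at 7.86, 40.0, 15.7 and 24.4 CPM in tumor-derived astrocytes, at 1.94, 1.94, 2.39 and 1.17 CPM in GNPs and at 23.5, 128, 53.0 and 35.6 CPM in normal astrocytes. Every astrocyte library of either kind lay above every GNP library, and the astrocyte groups overlapped. Tumor-derived astrocytes exceeded GNPs by 3.55 ± 0.63 in log2 units (adjusted p = 0.00114, and 0.0321 with GNPs summed), and GNPs against normal astrocytes gave -5.00 ± 0.67 (adjusted p = 6.18e-05 and 0.00375), or -4.30 without normal replicate 2. Against normal astrocytes, tumor-derived astrocytes did not pass (-1.45 ± 0.57, adjusted p = 0.0579), and passed without tumor-derived replicate 2, normal replicate 1 or normal replicate 4 (adjusted p of 0.0347, 0.0293 and 0.0485). Fzd2, a receptor for canonical and other Wnt signals, ran the other way, at 21.2, 12.4, 6.83 and 4.61 CPM in tumor-derived astrocytes, at 6.91, 6.11, 5.60 and 4.80 CPM in GNPs and at 0.756, 0.794, 0 and 0.683 CPM in normal astrocytes. Both tumor groups lay above every normal library and overlapped each other. It rose by 4.31 ± 0.89 in tumor-derived (adjusted p = 0.00203) and by 3.37 ± 0.86 in GNP libraries (adjusted p = 0.00625 and 0.0312) relative to normal astrocytes, with no call between the tumor groups (0.94 ± 0.77, adjusted p = 0.373).

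Fzd3, a receptor needed for axon tracts, was at 2.4 to 4.12 CPM in tumor-derived astrocytes, 6.23 to 9.5 CPM in GNPs and 0 to 3.9 CPM in normal astrocytes, and Fzd4, the Norrin receptor of brain blood vessels, at 0 to 2.33 CPM, 0 to 3.01 CPM and 0 to 7.82 CPM, and neither passed in any comparison. Fzd4 was lower in GNPs than in normal astrocytes once GNP replicate 3, the one GNP library with counts, was left out (adjusted p = 0.0396, and 0.47 with all libraries). The endothelial marker list, whose summed level in GNPs was 11.2 to 16 CPM with Cldn5, Cdh5, Tek and Ly6c1 at 0, reached its highest value, 708 CPM, in normal replicate 3, where Fzd4 was highest as well, and was 201 to 273 CPM in tumor-derived astrocytes and 183 to 708 CPM in normal astrocytes. Normal replicate 2 had a sum of 341 CPM and Fzd4 at 0. Tumor-derived replicates 2 and 3 had sums of 273 and 271 CPM and Fzd4 at 2.33 and 0.108 CPM. GNP replicate 3 had the lowest sum of the GNPs, 11.2 CPM, and the highest Fzd4 there, 3.01 CPM. The part of endothelial RNA in the Fzd4 values was not tested. Fzd6 reached 46 counts in normal replicate 4, Fzd1 17 counts and Fzd5 and Fzd10 6 counts each, all in that same library, and Fzd8 at most 1 count anywhere. Fzd7 had 0, 0, 3 and 0 counts in tumor-derived astrocytes, 1, 1, 0 and 4 in GNPs and 0 in normal astrocytes.

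Lrp6, a co-receptor that passes the signal into the cell, was at 3.62, 2.58, 1.95 and 4.03 CPM in tumor-derived astrocytes, at 14.0, 12.8, 13 and 13.9 CPM in GNPs and at 7.28, 16.6, 2.24 and 2.63 CPM in normal astrocytes. Each tumor-derived library lay below each GNP library, but the call (-2.14 ± 0.64, adjusted p = 0.022) was lost with GNPs summed (adjusted p = 0.11). GNPs passed against normal astrocytes without normal replicate 2 alone (1.75, adjusted p = 0.0242), where the fit of all libraries gave 0.90 ± 0.62 (adjusted p = 0.256). Lrp5, the other co-receptor, did not pass the filter, with 17, 4, 5 and 5 counts in tumor-derived astrocytes, 1, 1, 1 and 0 in GNPs and 0 in every normal library.

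Lgr5 was the 1 member called higher in tumor-derived astrocytes than in both other groups, a class that held 2.58% of all tested genes. It encodes a receptor for R-spondins, which strengthen Wnt signals by protecting frizzled receptors from removal, and it marks stem cells of the gut. Lgr5 stood at 22.1, 13, 17.5 and 8.92 CPM in tumor-derived astrocytes, at 1.19, 1.02, 1.97 and 0.427 CPM in GNPs and at 1.04, 1.93, 0.516 and 1.66 CPM in normal astrocytes. All 4 tumor-derived libraries lay above all others, and GNPs and normal astrocytes overlapped. The mean was 15.4 ± 5.67 CPM in tumor-derived astrocytes (n = 4), 1.42 ± 0.773 CPM in GNPs (n = 2) and 1.29 ± 0.634 CPM in normal astrocytes (n = 4). The log2 fold change was 3.72 ± 0.68 against GNPs (adjusted p = 0.00129 and 0.0374) and 3.57 ± 0.67 against normal astrocytes (adjusted p = 0.00107), and neither call was lost in any of 19 alternative fits. The gene lies on chromosome 10 at 115450311 to 115587780 (mm10, minus strand) and overlaps A930009A15Rik on the opposite strand, which had 39 counts in all libraries together against 632 for Lgr5. Whether reads were counted by strand is not given in the sources used here.

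Lgr6, a close relative that also binds R-spondins, was seen mainly in normal astrocytes. It was at 0.748, 0.123, 0.868 and 0.192 CPM in tumor-derived astrocytes, at 0.108, 0.204, 1.04 and 0.427 CPM in GNPs and at 23.3, 0, 12.8 and 17.6 CPM in normal astrocytes. Normal replicate 2 had no count, so the groups overlapped through that library alone. Tumor-derived astrocytes were lower than normal astrocytes by the test (-4.76 ± 1.34, adjusted p = 0.0127), and GNPs were in the fit of all libraries only (adjusted p = 0.00997, and 0.107 with GNPs summed). Lgr4, the broadly expressed relative, was at 0.737 to 2.12 CPM, 2.34 to 3.78 CPM and 0.284 to 13.6 CPM in tumor-derived astrocytes, GNPs and normal astrocytes, and passed in no comparison. Tumor-derived astrocytes were lower than normal astrocytes only without normal replicate 1 (-2.34, adjusted p = 0.0206). Leaving out other libraries gave values up to -1.02 and adjusted p up to 0.372. Of the ligands of these receptors, Rspo3 had 0, 0, 5 and 7 counts in tumor-derived astrocytes, 0 in GNPs and 31, 3, 34 and 26 counts in normal astrocytes, and was not tested. Rspo1 and Rspo2 had at most 4 counts in a library.

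Sfrp1 showed the largest called increase of any member from edgeR in tumor over normal libraries. Secreted frizzled-related proteins carry the Wnt-binding domain of frizzled receptors and hold ligands away from cells. Sfrp1 stood at 592, 584, 716 and 566 CPM in tumor-derived astrocytes, at 1021, 1060, 1145 and 1037 CPM in GNPs and at 0, 0, 0.516 and 1.37 CPM in normal astrocytes. The 3 groups did not overlap, with normal astrocytes near 0, tumor-derived astrocytes in between and GNPs highest. Sfrp1 was higher in tumor-derived than in normal astrocytes by 10.28 ± 0.70 in log2 units (adjusted p = 5.27e-07) and higher in GNPs than in normal astrocytes by 11.08 ± 0.72 (adjusted p = 1.38e-07 and 7.65e-06). Without normal replicate 4, which held 14 counts beside 6 in replicate 3, these values were 11.59 and 12.38. Between the tumor groups the difference of -0.79 ± 0.45 did not pass (adjusted p = 0.19, and 0.358 with GNPs summed; it was 0.0384 in DESeq2 and 0.000983 in a fit of these 2 groups alone), although every GNP library was above every tumor-derived one. Cell cycle markers and 5 and 4 of 8 granule progenitor markers were also higher in tumor-derived and GNP libraries than in normal astrocytes, and their part in the values of Sfrp1, Fzd2, Tcf7l1 and Draxin was not tested. The gene lies on chromosome 8 at 23411502 to 23449632 (mm10, plus strand) and overlaps no other gene of the table.

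Sfrp2 and Dkk4 were likewise higher in both tumor groups than in normal astrocytes, at far lower levels. Sfrp2 was at 2.74, 2.09, 5.10 and 0.48 CPM in tumor-derived astrocytes, at 13.2, 13.2, 14.7 and 12.3 CPM in GNPs and at 0.662, 0.227, 0 and 0 CPM in normal astrocytes. GNPs stood clear of both astrocyte groups, which overlapped through tumor-derived replicate 4. It was higher in tumor-derived than in normal astrocytes (3.48 ± 1.04, adjusted p = 0.0173), a call lost without tumor-derived replicate 3 (adjusted p = 0.0554), and its size was 5.02 without normal replicate 1. GNPs exceeded normal astrocytes by 5.84 ± 1.13 (adjusted p = 0.00105 and 0.00861), or 7.37 without normal replicate 1. Between tumor-derived astrocytes and GNPs there was no call (-2.36 ± 0.94, adjusted p = 0.0695 and 0.211). An antisense gene, Gm26771, overlaps 464 bases of Sfrp2 and had 172 counts against 609.

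Dkk proteins block the Lrp co-receptors. Dkk4 was at 1.37, 1.6, 0.434 and 0.672 CPM in tumor-derived astrocytes, at 3.35, 2.14, 2.28 and 3.2 CPM in GNPs and at 0 in normal astrocytes but for 1 count in replicate 2. The 3 groups did not overlap. Its counts were 35 in tumor-derived against 1 in normal astrocytes, a ratio of 40.3 (exact 95% counting interval 6.78 to 1638; adjusted p = 0.00293). They were 104 in GNPs against that same 1, a ratio of 113 (19.8 to 4493; adjusted p = 0.000468 and 0.00502), and without normal replicate 2 both calls held. Between tumor-derived astrocytes and GNPs there was no call (-1.42 ± 0.81, adjusted p = 0.191 and 0.423). Dkk3, a divergent member of the family, was at 11.5, 7.25, 5.75 and 7.87 CPM in tumor-derived astrocytes, at 0, 0, 0.519 and 0 CPM in GNPs and at 0.189, 1.25, 4.9 and 11.2 CPM in normal astrocytes. Every tumor-derived library exceeded every GNP library, but the call (5.82 ± 1.43, adjusted p = 0.00777) was lost with GNPs summed (adjusted p = 0.103).

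Of the antagonists that were not tested, Dkk2 had 4, 6, 3 and 4 counts in tumor-derived astrocytes and 0 in the other 8 libraries. Wif1, the Wnt inhibitory factor, had 19, 6, 6 and 11 counts in tumor-derived astrocytes, 2, 1, 7 and 0 in GNPs and 13, 3, 0 and 0 in normal astrocytes, with all groups overlapping. Sfrp5 had 21 counts in tumor-derived replicate 1, 4 in replicate 4, 39 in GNP replicate 3 and 0 elsewhere. Sfrp4 had at most 17 counts in a library, and Dkk1 had a single count in all.

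**Figure D3:**
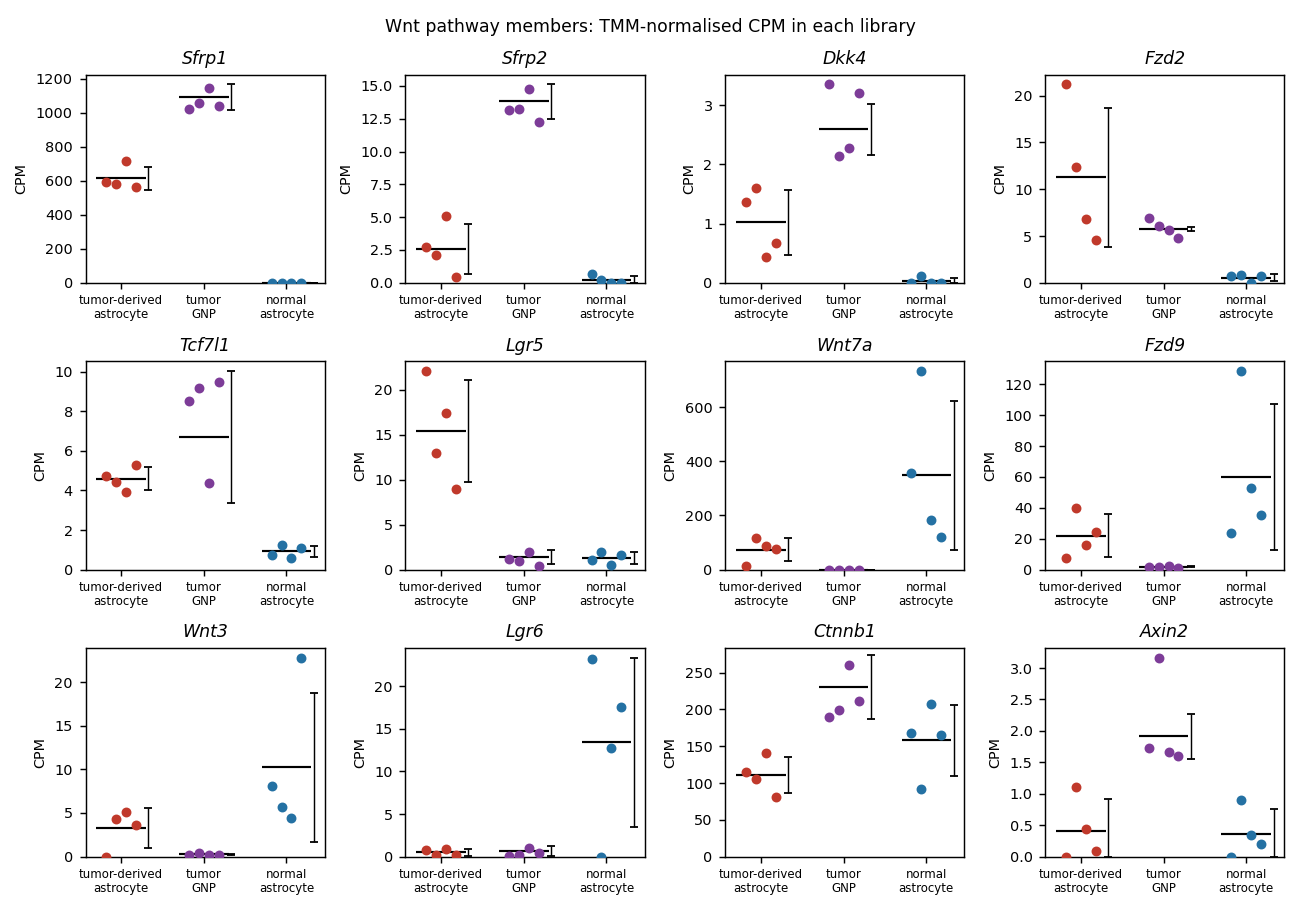
Level in CPM (linear axes from 0, 1 scale per gene) of 12 members, with 1 point per library, a horizontal line at the group mean and a bar of 1 SD, cut at 0, beside each group. Means and SD are over 4 samples in astrocytes and over 2 in GNPs, where replicates 1, 2 and 4 count as 1. Sfrp1, Sfrp2, Dkk4, Fzd2 and Tcf7l1 lie low in normal astrocytes, Lgr5 is highest in tumor-derived astrocytes, and Wnt7a and Fzd9 are lowest in GNPs. Wnt3 has its lowest mean in GNPs, but tumor-derived replicate 1, at 0, cannot be told from the GNP libraries that held 2 counts.

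Inside the cell, Ctnnb1, which encodes β-catenin, was at 115, 106, 141 and 80.4 CPM in tumor-derived astrocytes, at 190, 199, 261 and 211 CPM in GNPs and at 168, 92.1, 207 and 166 CPM in normal astrocytes. Tumor-derived astrocytes lay below every GNP library and overlapped normal astrocytes. Against GNPs the log2 fold change of -0.96 ± 0.26 passed in the fit of all libraries (adjusted p = 0.013) and missed the threshold with GNPs summed (adjusted p = 0.0509), and against normal astrocytes it was -0.52 ± 0.26 (adjusted p = 0.129), or -0.68 without normal replicate 2 (adjusted p = 0.0258). RNA of Ctnnb1 does not show how much β-catenin is stable, since the pathway acts on the protein. Axin1, the scaffold of the destruction complex, was at 38.5 to 61.3 CPM in tumor-derived astrocytes, 46.1 to 62.7 CPM in GNPs and 16.4 to 46.6 CPM in normal astrocytes, with no call (adjusted p of 0.2, 0.953 and 0.217). Axin2, a widely used target gene of canonical signalling, was low everywhere. It was at 0, 1.11, 0.434 and 0.0960 CPM in tumor-derived astrocytes, at 1.73, 3.16, 1.66 and 1.60 CPM in GNPs and at 0, 0.908, 0.344 and 0.195 CPM in normal astrocytes. GNPs lay above all 8 astrocyte libraries without a call (2.47 ± 1.14 against normal astrocytes, adjusted p = 0.095, or 0.0464 without normal replicate 2, and -2.29 ± 1.14 for tumor-derived astrocytes against GNPs, adjusted p = 0.138). Of the 24 members, 10 were below GNPs in every tumor-derived library, as were 22.1% of all tested genes, and 5 were above, as were 25.8%.

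Of the TCF/LEF factors, Tcf7l1, the member that mainly represses targets, was higher in both tumor groups than in normal astrocytes. It was at 4.74, 4.42, 3.90 and 5.28 CPM in tumor-derived astrocytes, at 8.53, 9.17, 4.36 and 9.50 CPM in GNPs and at 0.756, 1.25, 0.602 and 1.07 CPM in normal astrocytes. Neither tumor group overlapped normal astrocytes. The log2 fold change against normal astrocytes was 2.31 ± 0.57 in tumor-derived astrocytes (adjusted p = 0.00609) and 3.09 ± 0.59 in GNPs (adjusted p = 0.00089 and 0.0174). A total of 6 other genes of the table overlap Tcf7l1, the largest of them Gm37969 on the same strand with 227 counts against 502. Tcf7l2, which can activate or repress targets, was at 3.49, 2.95, 2.17 and 2.21 CPM in tumor-derived astrocytes, at 14.9, 14.2, 7.57 and 13.5 CPM in GNPs and at 0.378, 0.908, 4.13 and 2.34 CPM in normal astrocytes. GNPs lay above all other libraries, yet both calls of the fit of all libraries (adjusted p of 0.0258 and 0.00733) were lost with GNPs summed (0.165 and 0.0617). Lef1 and Tcf7, which mainly activate targets, did not pass the filter. Lef1 had 19, 5, 9 and 3 counts in tumor-derived astrocytes, 4, 1, 2 and 6 in GNPs and 0, 1, 3 and 22 in normal astrocytes. Tcf7 had 0, 2, 2 and 1 counts in tumor-derived astrocytes, 1, 1, 0 and 2 in GNPs and 0, 0, 4 and 17 in normal astrocytes.

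**Figure D4:**
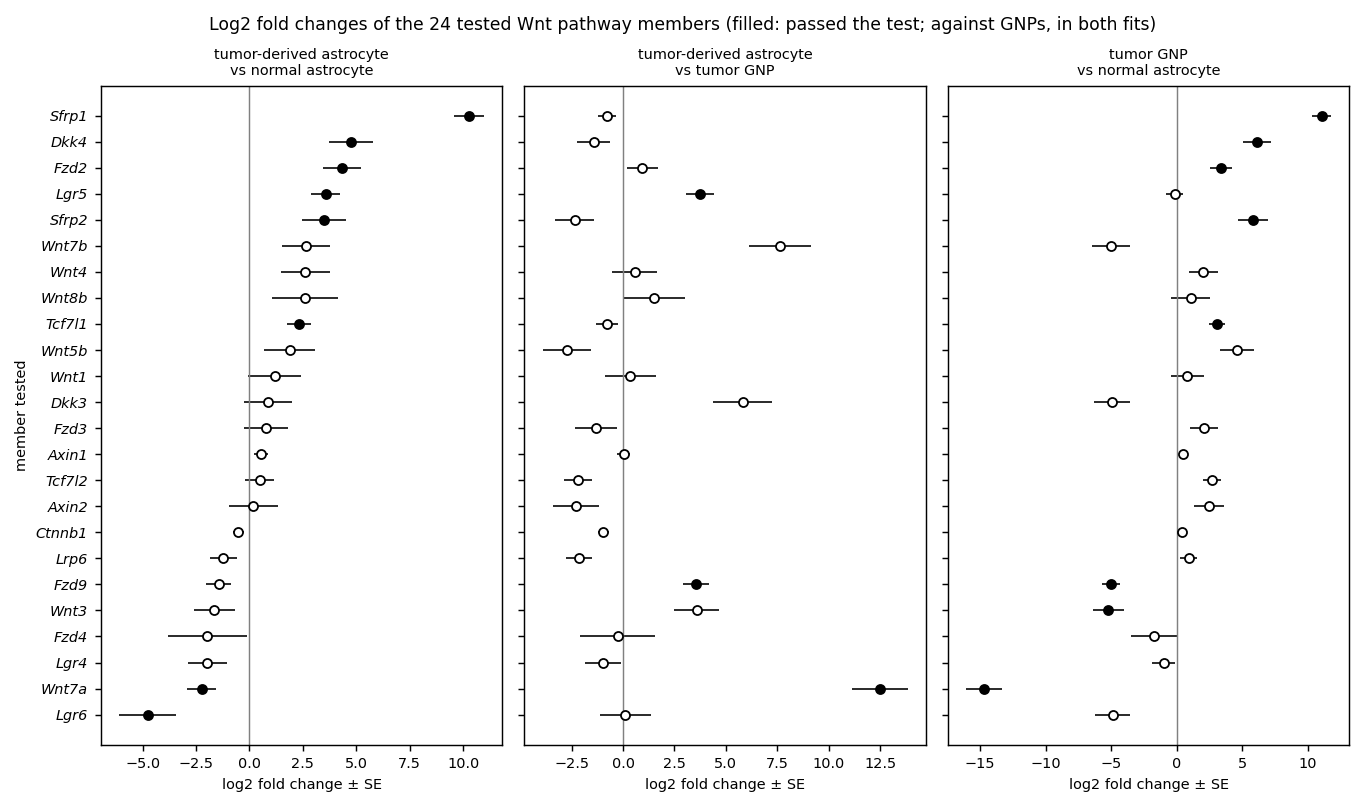
Log2 fold change with its standard error for the 24 tested members in the 3 comparisons, the first named group over the second, ordered by the first panel. Filled points passed the test, which against GNPs means both fits: 8 members for tumor-derived against normal astrocytes, 3 for tumor-derived astrocytes against GNPs and 8 for GNPs against normal astrocytes. Values for Wnt7a against GNPs are fits to counts of 0 and are no bound.

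A list of 89 further pathway genes was examined, of which 88 were in the table and 78 were tested. Tumor-derived astrocytes were higher than normal astrocytes in 20 of them (25.6%, beside 20.7% of all tested genes) and lower in 12 (15.4%, beside 19.3%). Against GNPs, tumor-derived astrocytes were higher in 5 (6.41%, beside 7.84%) and lower in 2 (2.56%, beside 4.36%) by both fits, and GNPs were higher than normal astrocytes in 11 (14.1%, beside 13.9%) and lower in 3 (3.85%, beside 13.4%). The median log2 fold change of the 78 was 0.41, -0.23 and 0.20 in the same order of comparisons, beside the medians over all tested genes given above. For tumor-derived against normal astrocytes, 4 destruction complex and relay genes were higher and 3 lower of 19 tested, and 7 co-factors of TCF/LEF factors were higher and 2 lower of 16. Antagonists and receptor turnover genes gave 3 higher and 2 lower of 13, planar polarity and other receptors 3 and 2 of 14, common target genes 3 and 2 of 14, and secretion genes 0 and 1 of 2. Of the 8 cell cycle genes, whose sums are given above, 7 were higher in tumor-derived and 8 in GNP libraries than in normal astrocytes (Pcna did not pass in tumor-derived astrocytes, -0.24 ± 0.70, adjusted p = 0.81), and their part in the values of the targets Birc5 and Ccnd1 was not tested.

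Antagonists held the largest change among them. Draxin, a secreted Wnt antagonist and axon guidance protein, was at 418, 1023, 1226 and 870 CPM in tumor-derived astrocytes, at 355, 376, 523 and 359 CPM in GNPs and at 0.0946, 0, 0 and 1.27 CPM in normal astrocytes. Like Sfrp1, it was high in each tumor library and near 0 in each normal one. It was higher by 11.29 ± 0.85 in tumor-derived astrocytes (adjusted p = 1.16e-06) and by 10.16 ± 0.83 in GNPs (adjusted p = 8.71e-07 and 2.63e-05) relative to normal astrocytes, or 14.27 and 13.13 without normal replicate 4. Frzb, a further frizzled-related protein, was at 6.11, 1.6, 3.8 and 5.76 CPM in tumor-derived astrocytes, with 1 count in all GNP libraries and 1 in all normal libraries. Tumor-derived astrocytes thus exceeded GNPs by a ratio of counts of 167 (exact 95% counting interval 29.5 to 6638; adjusted p = 0.00108 and 0.0229) and normal astrocytes by 181 (32.0 to 7193; adjusted p = 0.000649). Of the 78, 4 genes were called higher in tumor-derived astrocytes than in both other groups, namely Frzb, Celsr2, Tle3 and Aes, a relative of the Tle corepressors that was named after its values were seen (0.99 ± 0.26 over normal astrocytes, adjusted p = 0.00767, and 1.48 ± 0.26 over GNPs, adjusted p = 0.00103 and 0.0355). The summed pericyte, fibroblast and meningeal markers and the summed microglia and macrophage markers were also highest in tumor-derived astrocytes. Of the 8 tested in the first list, 2 were higher and 1 lower than in normal astrocytes. By both fits, 1 was higher and 0 lower than in GNPs. Of the 10 tested in the second list, 3 were higher than in normal astrocytes and 9 than in GNPs, with 0 lower. The part of either list in the values of these 4 genes and of Lgr5 was not tested. Tmem88, a membrane protein that binds the relay protein Dvl, was at 0.998, 1.47, 0.976 and 0.0960 CPM in tumor-derived astrocytes, 0 in GNPs and 7.47, 4.09, 18.1 and 6.64 CPM in normal astrocytes, and was called in each comparison (adjusted p of 0.016, 0.00574 and 0.000321).

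Receptors outside the frizzled family were called in both directions. Ror2, a receptor kinase for Wnt5 ligands, was at 1.12 to 3.26 CPM in tumor-derived astrocytes, 1.73 to 3.42 CPM in GNPs and 0 in normal astrocytes, with calls against normal astrocytes (adjusted p of 0.000395 and 0.000222). Ror1, its relative, was at 0 to 0.249 CPM in tumor-derived astrocytes, 1.76 to 6.72 CPM in GNPs and 0.113 to 22.9 CPM in normal astrocytes. It was lower in tumor-derived than in normal astrocytes (adjusted p = 0.014), a call lost without normal replicate 3, the highest library (adjusted p = 0.145). Celsr2, a planar polarity cadherin, was at 193 to 434 CPM in tumor-derived astrocytes, 36.7 to 40.2 CPM in GNPs and 12.5 to 68.2 CPM in normal astrocytes, with a log2 fold change of 2.78 ± 0.44 over GNPs (adjusted p = 0.000525 and 0.02) and 2.86 ± 0.44 over normal astrocytes (adjusted p = 0.000291). Ryk, a pseudokinase Wnt receptor, was at 7.00 to 11.0 CPM in tumor-derived astrocytes, against 27.9 to 46.5 CPM in GNPs (-1.87 ± 0.37, adjusted p = 0.00219 and 0.0216). Normal astrocytes, at 7.82 to 13.9 CPM, overlapped tumor-derived astrocytes without a call (adjusted p = 0.849). GNPs were also higher than normal astrocytes (1.77 ± 0.37, adjusted p = 0.00168 and 0.0113). Daam2, a formin that acts in Wnt signalling of glia, was at 0 in GNPs but for 2 counts in replicate 4, against 7.22 to 26.3 CPM in normal astrocytes (adjusted p = 0.000479 and 0.007), and its ratio of counts was 0.0039 (exact 95% counting interval 0.000471 to 0.0141). In tumor-derived astrocytes it was at 0 to 1.15 CPM, likewise lower than in normal astrocytes (-4.76 ± 1.11, adjusted p = 0.00438).

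Of the co-factors and relay genes, Tle3, a corepressor of TCF/LEF factors, was at 21.8 to 32.2 CPM in tumor-derived astrocytes, against 2.38 to 4.67 CPM in GNPs (2.88 ± 0.50, adjusted p = 0.000944 and 0.0347), and was 2.13 ± 0.48 above normal astrocytes in log2 units (adjusted p = 0.00368). Tnks2, a tankyrase that marks Axin for removal, was at 9.98 to 13.7 CPM in tumor-derived astrocytes, against 32.5 to 44.5 CPM in GNPs (-1.66 ± 0.36, adjusted p = 0.0037 and 0.0347). Normal astrocytes, at 10.7 to 23.3 CPM, overlapped tumor-derived astrocytes without a call (adjusted p = 0.441). GNPs were also higher than normal astrocytes (1.30 ± 0.35, adjusted p = 0.00915 and 0.0418). Among target genes, Birc5, an inhibitor of cell death active in mitosis, was at 137 to 246 CPM in tumor-derived astrocytes, 236 to 287 CPM in GNPs and 0.086 to 1.95 CPM in normal astrocytes. Its log2 fold change against normal astrocytes was 7.98 ± 0.68 in tumor-derived astrocytes (adjusted p = 2.96e-06) and 8.59 ± 0.69 in GNPs (adjusted p = 8.45e-07), or 9.49 and 10.09 without normal replicate 4. Ccnd1, cyclin D1, was at 44.6 to 178 CPM in tumor-derived astrocytes, 46.5 to 67.7 CPM in GNPs and 0.113 to 5.17 CPM in normal astrocytes, with 5.90 ± 0.78 in tumor-derived astrocytes (adjusted p = 9.03e-05) and 4.61 ± 0.74 in GNPs (adjusted p = 0.000258), or 6.69 and 5.40 without normal replicate 4.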

How the data were processed

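The data were raw read counts per gene, deposited by the authors as 1 table with a column for each of the 12 libraries. Per the submitters' processing notes, reads were checked with FastQC and aligned with STAR to mm10. The counting program, its annotation and its use of strand were stated nowhere in the sources at hand. The table had 47284 lines. Removing 767 repeats of a gene left 46517 genes, and 27 symbols that a spreadsheet had turned into dates were restored by Ensembl identifier. Mitochondrial genes had 0 counts.

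Members were every protein-coding gene whose symbol matched the family names. Members and lists were chosen with earlier results of these data known. All 54 members were open to naming. Full values were given for members called in any comparison and for a fixed set of core members, and of other pathway genes the 6 called ones of largest absolute log2 fold change per comparison were named.

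Counts were tested with edgeR 4.0.16 (R 4.3.3), a quasi-likelihood F-test with robust dispersion, TMM factors, filterByExpr (minimum count 10, minimum total 15) and 3 group means over all libraries, which left 9 residual degrees of freedom. P-values were adjusted by Benjamini-Hochberg over 14393 genes and called at 0.05. Where a second adjusted p is given, it is that of the fit with GNP replicates 1, 2 and 4 summed. Standard errors were taken from the F statistic. Alternatives were DESeq2 1.42.0, 2 other scalings, 2 other filters, fits of 2 groups alone, the summed GNP libraries and leaving out each library. Replicates were numbered in accession order. The floor for a count of 0 was 3 counts per library (0.258 to 0.374 CPM), which covers counting error only.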

Additional observations from a re-analysis of the deposited data

Results flagged for a closer look

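A total of 7 of 48 sets of 4 astrocyte libraries had 1 library whose gap to the nearest other exceeded the 95% critical value of Dixon's test. Chance flags about 1 set in 20 where values are normally distributed, but for Wnt5b, Wnt8b and Dkk4 in normal astrocytes and Fzd4 in tumor-derived astrocytes the other 3 libraries held at most 1 count, so that any higher value would have stood out and that rate does not apply. GNPs count as 2 samples and were not examined. In tumor-derived astrocytes, Wnt4 stood at 66.3 CPM in replicate 1 and Fzd4 at 2.33 CPM in replicate 2. In normal astrocytes, Fzd4 stood at 7.82 CPM in replicate 3, Wnt5b at 2.63 CPM and Wnt8b at 3.32 CPM in replicate 4, and Dkk4 at 0.113 CPM, a single count, in replicate 2. Fzd2 was at 0 CPM in normal replicate 3 and between 0.683 and 0.794 CPM in the others.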

How the results depend on the processing

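Sfrp1, Lgr5, Lgr6, Fzd2, Tcf7l1 and Dkk4 stayed called between tumor-derived and normal astrocytes in each alternative that tested them, whereas Wnt7a lost its call without any 1 of 3 libraries and Sfrp2 without 1. Of 1319 alternative values of single members, 1231 kept direction and side of the threshold, 31 lost a call, 30 gained one and 27 turned sign. With a mean CPM of at least 10 in a group, members called higher numbered 3 rather than 6 in tumor-derived and 4 rather than 7 in GNP libraries against normal astrocytes, while all genes called higher numbered 2211 rather than 2980 and 2257 rather than 2933. With the 2 groups alone, members called lower in tumor-derived astrocytes numbered 1 rather than 2 against normal astrocytes and 9 rather than 3 against GNPs (6 by DESeq2). With no filter, 10 rather than 6 members and 3773 rather than 3423 genes were lower in GNPs than in normal astrocytes. Summing the close GNP libraries left, against GNPs, 3 members higher and 0 lower in tumor-derived astrocytes (3 lower at an unadjusted p under 0.05), and 3 lower in GNPs against normal astrocytes. Over the whole table, summing gave 1129 genes higher rather than 2900 and 628 lower rather than 1852 in tumor-derived astrocytes against GNPs, and 1929 lower rather than 3423 in GNPs against normal astrocytes, while the 2 groups alone gave 3184 lower in tumor-derived astrocytes against GNPs. Leaving out 1 library gave 1 to 4 members lower in tumor-derived against normal astrocytes, and against GNPs 1 to 5 members and 1213 to 2385 genes lower.

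None of the values that turned sign was called. Leaving out 1 library, the log2 fold change of tumor-derived against normal astrocytes ran from -0.93 to 1.13 for Axin2. Against GNPs it ran from -0.31 to 0.92 for Lgr6, -0.044 to 0.17 for Axin1, -3.17 to 5.63 for Fzd4, -0.30 to 0.97 for Wnt1 and -1.10 to 1.18 for Wnt4, and summing gave -0.42 for Lgr6, -0.13 for Axin1 and -0.12 for Wnt1. For GNPs against normal astrocytes it ran from -0.50 to 0.14 for Lgr5, -7.57 to 0.082 for Fzd4 and -0.20 to 7.08 for Wnt8b, and Lgr5 was 0.081 with upper-quartile factors and 0.23 with summing. The cause was not tested. Upper-quartile factors shifted the median gene by 0.23 in tumor-derived and 0.25 in GNP libraries against normal astrocytes. The 30 members that did not pass the filter, Wnt6 and Wnt9b with 177 and 167 counts among them, are given without a test, and at this depth levels under 3 counts in a library cannot be told from 0. No paired analysis was possible because the labels carry no replicate numbers shared between groups.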

Other observations

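Several members, picked out after their values were seen, were highest in the same library of each tumor group. In tumor-derived replicate 1 and in GNP replicate 3, Wnt4, Wnt8b, Wnt1, Wnt10b and Sfrp5 each reached the highest level of their group. So did Lgr5 (22.1 and 1.97 CPM), Dkk3 (11.5 and 0.519 CPM) and Wif1 (2.37 and 0.726 CPM), and Wnt5a with at most 2 counts in a library. GNP replicate 3 is the library that lay apart from the close GNP libraries. The share of all genes that were highest in these same libraries was not counted, so the list stands for nothing more. Wnt10b was at 2.62 CPM in tumor-derived replicate 1 and 0.217 to 0.983 CPM in the others, and at 0.934 CPM in GNP replicate 3 and 0 in the others. Wnt1 was at 3.62 CPM against 0.491 to 1.41 CPM and at 2.7 CPM against 0.407 to 1.73 CPM in the same libraries. In tumor-derived replicate 1, Wnt7a (13.8 CPM), Wnt7b (2.12 CPM) and Wnt3 (0 CPM) were at the lowest level of the group, and Lgr5 (22.1 CPM) and Fzd2 (21.2 CPM) at the highest. That library also had the highest sum of Purkinje and mature neuron markers in its group, 694 CPM against 203 to 286 CPM, and the lowest of astrocyte markers, 1001 CPM against 1588 to 2101 CPM. The part of these differences in the pattern was not tested.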
